A study of Arabidopsis thaliana with 57 samples.

Results

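The question addressed here is what heat added to plants that were already short of water. RNA from 3 heat-drought libraries was compared directly with RNA from 3 drought libraries, 6 of the 57 samples of the series, and the values of 19010 genes entered the test. The members were taken by their group labels at the end-point of the stress, and no control library entered this difference. The plants of both groups were Col-0, the usual laboratory wild type of Arabidopsis thaliana, with no mutation or transgene named, and rosette leaves were harvested at 18 days of age, 6 h after lights on. Both groups were short of water from day 15, with light of 120 µmol m-2 s-1 and a 12 h photoperiod. Drought plants stayed at the standard temperatures, 22 °C in the light and 18 °C in the dark, while heat-drought plants were moved to 27 °C and 23 °C. The labels give no water content of soil or leaf, so warmth itself and a faster loss of water from warm plants cannot be told apart.

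Other groups of 3 libraries, of the same accession, tissue, age and hour, were used to read the result. They were heat alone at 27 °C and 23 °C, high light at 350 µmol m-2 s-1 with the temperatures of drought, heat with high light, and a control without stress, which belongs to the recovery setup. In that setup drought and heat-drought began on day 12 and were followed by 3 days in standard conditions. Nothing in the labels says that replicates came from separate cultures, so the p-values rest on a spread among libraries that could be technical.

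A leaf that loses water makes the hormone abscisic acid, which closes stomata and switches on genes for dehydrins, late embryogenesis abundant (LEA) proteins, proline and raffinose sugars. Warmth of the kind used here is known in watered Arabidopsis for elongation growth through the PIF factors and auxin, and stronger heat for heat shock factors, which switch on chaperones that hold or refold proteins. Drought slows cell division and photosynthesis, and it is known to induce the red anthocyanin pigments, which warm temperatures repress.

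The values are rlog values, a log2 scale, and each library was centred on its median gene, so that a value of 0 is the level of the median gene and a difference of 1 is a doubling. The depth of the libraries is unknown, because the files hold no counts. Genes departed from the rest of their group unevenly. The SD within a group, pooled over genes, was 0.282 in heat-drought, the largest of 17 groups, and 0.229 in drought, the third largest, against 0.108 in the tightest group. In heat-drought replicate 3, 64 genes stood 2 or more log2 units above the mean of the other 2 replicates. In drought replicate 3, 50 genes did so, against 2 to 6 in the other 4 libraries. In the other direction, 30 genes of heat-drought replicate 1 and 27 of drought replicate 2 stood as far below that mean. The counts were 21 in heat-drought replicate 2, 11 in drought replicate 1, and 9 and 0 in replicate 3 of heat-drought and drought. The largest value above its group belonged to CYP71A15, a cytochrome P450, at 27.0 on the deposited scale in heat-drought replicate 3. The gene read 10.3 and 14.3 in heat-drought replicates 1 and 2, and 3.31, 4.97 and 10.3 in drought. Its median was 3.24 over all libraries but heat-drought replicate 3. Without counts it is not known whether the value of 27.0 is a reliable estimate, and no other value below comes from this gene. The 6 pairs of replicates had r across genes between 0.980 and 0.996, and 0 genes tested held identical values in any pair.

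A model that shares a single spread over all 51 libraries used (the single-spread model) called 8398 of the 19010 genes (44.2%), 3879 higher (20.4%) and 4519 lower (23.8%) in heat-drought. As deposited, without centring, it called 9210, with 7468 higher and 1742 lower, the median difference over genes being 0.18 before centring. Because both groups varied more than most, a gene is said below to have risen or fallen where it passed an adjusted p of 0.05 both in that model and in 1 that gives each group its own weight. By that rule 3870 genes (20.4%) changed, 1764 rising (9.28%) and 2106 falling (11.1%), of which 224 rose (1.18%) and 198 fell (1.04%) by 1 or more. A fit on the 6 libraries alone called 60 genes (0.316%), and 6589 (34.7%) once it held the replicate number as a block. That block was added after seeing the data, and its pairing was read from the same libraries. Without heat-drought replicate 3 the single-spread model called 4392. Differences below are heat-drought minus drought on the log2 scale with their SE and adjusted p from limma's weighted fit, n = 3 libraries per group.

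Many genes that make anthocyanins fell, the red pigments built from phenylalanine through flavonoids. Of 24 members tested in the phenylpropanoid, flavonoid and anthocyanin list, 15 fell, 1 rose and 8 did not pass, with a median difference of -0.69 against 9.28% of all genes that rose and 11.1% that fell. The list's mean stood at 0.57, 0.46 and 0.85 in the drought libraries and at -0.47 in the control. In heat-drought it stood at -0.24, -0.38 and -0.53, so that every heat-drought library lay below every drought library and close to the control. In bulk leaves, fewer cells of a type and less RNA per cell cannot be told apart.

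The late enzymes of the pathway were among the genes that fell. Dihydroflavonol 4-reductase, DFR (AT5G42800), makes the colourless precursors of anthocyanins, and its value was 2.61, 2.38 and 3.01 in drought and 0.97, 0.37 and 0.30 in heat-drought, with a control mean of 0.48. The 2 groups stood well apart, and 2 of the 3 heat-drought libraries lay below the control mean. DFR fell by 2.12 ± 0.45, 4.34-fold (adjusted p = 0.00123). LDOX (AT4G22880), leucoanthocyanidin dioxygenase, the next enzyme, read 2.41, 2.20 and 2.43 in drought and 0.65, -0.30 and -0.50 in heat-drought. Replicate 1 was the highest heat-drought library for both genes and still lay far below drought. LDOX fell by 2.40 ± 0.38, 5.27-fold (adjusted p = 4.91e-05).

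The steps that decorate and move the pigment also fell. TT7 (AT5G07990), the flavonoid 3'-hydroxylase that adds a hydroxyl to the pigment's ring, fell by 2.13 ± 0.41. UGT79B1 (AT5G54060), which attaches a sugar, fell by 2.00 ± 0.34, and AT4G14090, annotated as a UDP-glycosyltransferase, by 1.90 ± 0.29. TT19 (AT5G17220), a glutathione S-transferase needed to bring anthocyanins into the vacuole, fell by 1.60 ± 0.31, and 5MAT (AT3G29590), the malonyl transferase, by 1.46 ± 0.30. The drought and heat-drought libraries of these 5 genes did not overlap. Each of them, with DFR, LDOX, 4CL3 and TT8, passed the fit on the 6 libraries alone. Both properties were conditions of the rule, given below, by which these genes were named, so they are no further evidence.

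The earlier steps fell in part. TT4 (AT5G13930), chalcone synthase, which opens the flavonoid branch, read 4.35, 4.06 and 4.58 in drought and 3.38, 3.39 and 3.40 in heat-drought, and stayed above the control mean of 2.35. It fell by 0.94 ± 0.34 (adjusted p = 0.0456). PAL1 and PAL2, the phenylalanine ammonia-lyases at the entry, fell by 0.50 ± 0.17 and 0.54 ± 0.15, while C4H, the cinnamate hydroxylase that also feeds lignin, was the member that rose, by 0.34 ± 0.12, with overlapping libraries (adjusted p = 0.0481, or 0.053 with the replicate block). 4CL3 (AT1G65060), a 4-coumarate ligase of the flavonoid branch, fell by 1.50 ± 0.18 from drought values of -0.47, -0.58 and -0.57 to -1.74, -2.18 and -2.21. Its drought values lay near the control mean of -0.25, so heat-drought lay below both. The chalcone isomerase TT5 differed by -0.35 ± 0.17 and the flavonol synthase FLS1 by -0.56 ± 0.21, and neither passed (adjusted p = 0.139 and 0.0583).

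Among the regulators, TT8 (AT4G09820), a bHLH factor that joins MYB and WD40 partners on late pathway promoters, read -1.22, -1.28 and -1.10 in drought and -2.44, -2.58 and -3.19 in heat-drought. The drought libraries were tightly grouped and the heat-drought libraries sat at or below the control mean of -2.47. TT8 fell by 1.54 ± 0.23, 2.90-fold (adjusted p = 1.76e-05). Its relatives EGL3 and GL3 fell by 0.56 ± 0.20 (adjusted p = 0.11 with the replicate block) and 0.43 ± 0.12. MYB75, the main anthocyanin MYB, read 1.09, 0.91 and 1.02 in drought and 0.60, 0.22 and -0.23 in heat-drought, against a control mean of -1.86. Its libraries did not overlap, its difference of -0.81 ± 0.32 missed the threshold (adjusted p = 0.063), and it remained far above the control. MYB90 fell by 2.70 ± 0.77, but this rested on drought replicate 3 at 5.63, the other drought values being 1.04 and -0.61 (adjusted p = 0.36 with the replicate block). The WD40 partner TTG1 differed by 0.04 ± 0.14 and the repressor MYBL2 by 0.09 ± 0.24.

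The stretches before the annotated gene starts of DFR, LDOX and TT8 are shown because these genes fell together and TT8-type factors are known to bind E-boxes. They are 250 bases each from the TAIR10.1 genome with RefSeq annotation, DFR at chr5:17166033-17166282 (minus strand), LDOX at chr4:12006210-12006459 (minus strand) and TT8 at chr4:6181631-6181880 (plus strand). Capitals mark the E-box CANNTG.
DFR: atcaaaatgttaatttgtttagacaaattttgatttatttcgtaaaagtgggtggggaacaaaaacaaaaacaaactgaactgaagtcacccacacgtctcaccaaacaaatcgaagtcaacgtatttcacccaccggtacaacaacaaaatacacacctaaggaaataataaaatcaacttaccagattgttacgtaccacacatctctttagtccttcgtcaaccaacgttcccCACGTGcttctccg
LDOX: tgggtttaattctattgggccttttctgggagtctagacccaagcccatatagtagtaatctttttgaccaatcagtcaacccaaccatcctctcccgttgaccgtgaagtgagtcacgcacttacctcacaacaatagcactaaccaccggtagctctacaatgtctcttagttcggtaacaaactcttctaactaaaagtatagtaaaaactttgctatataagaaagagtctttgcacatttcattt
TT8: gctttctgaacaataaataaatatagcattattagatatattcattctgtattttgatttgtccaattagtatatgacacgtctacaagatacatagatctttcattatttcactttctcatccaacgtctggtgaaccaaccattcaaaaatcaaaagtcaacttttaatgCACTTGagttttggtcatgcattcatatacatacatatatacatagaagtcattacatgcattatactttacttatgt
The DFR stretch held 1 E-box, which is also a G-box (CACGTG), starting 14 bases before the gene start. The TT8 stretch held 1 and the LDOX stretch 0 matches. Both motifs read the same on either strand and every G-box is also an E-box. Of 12833 genes with a full 250 bases before the next gene, 55.7% held an E-box and 7.44% a G-box, and of 20 such genes of the pathway list 13 and 5 did. These letters describe the windows and are no evidence of binding.

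**Figure D1:**
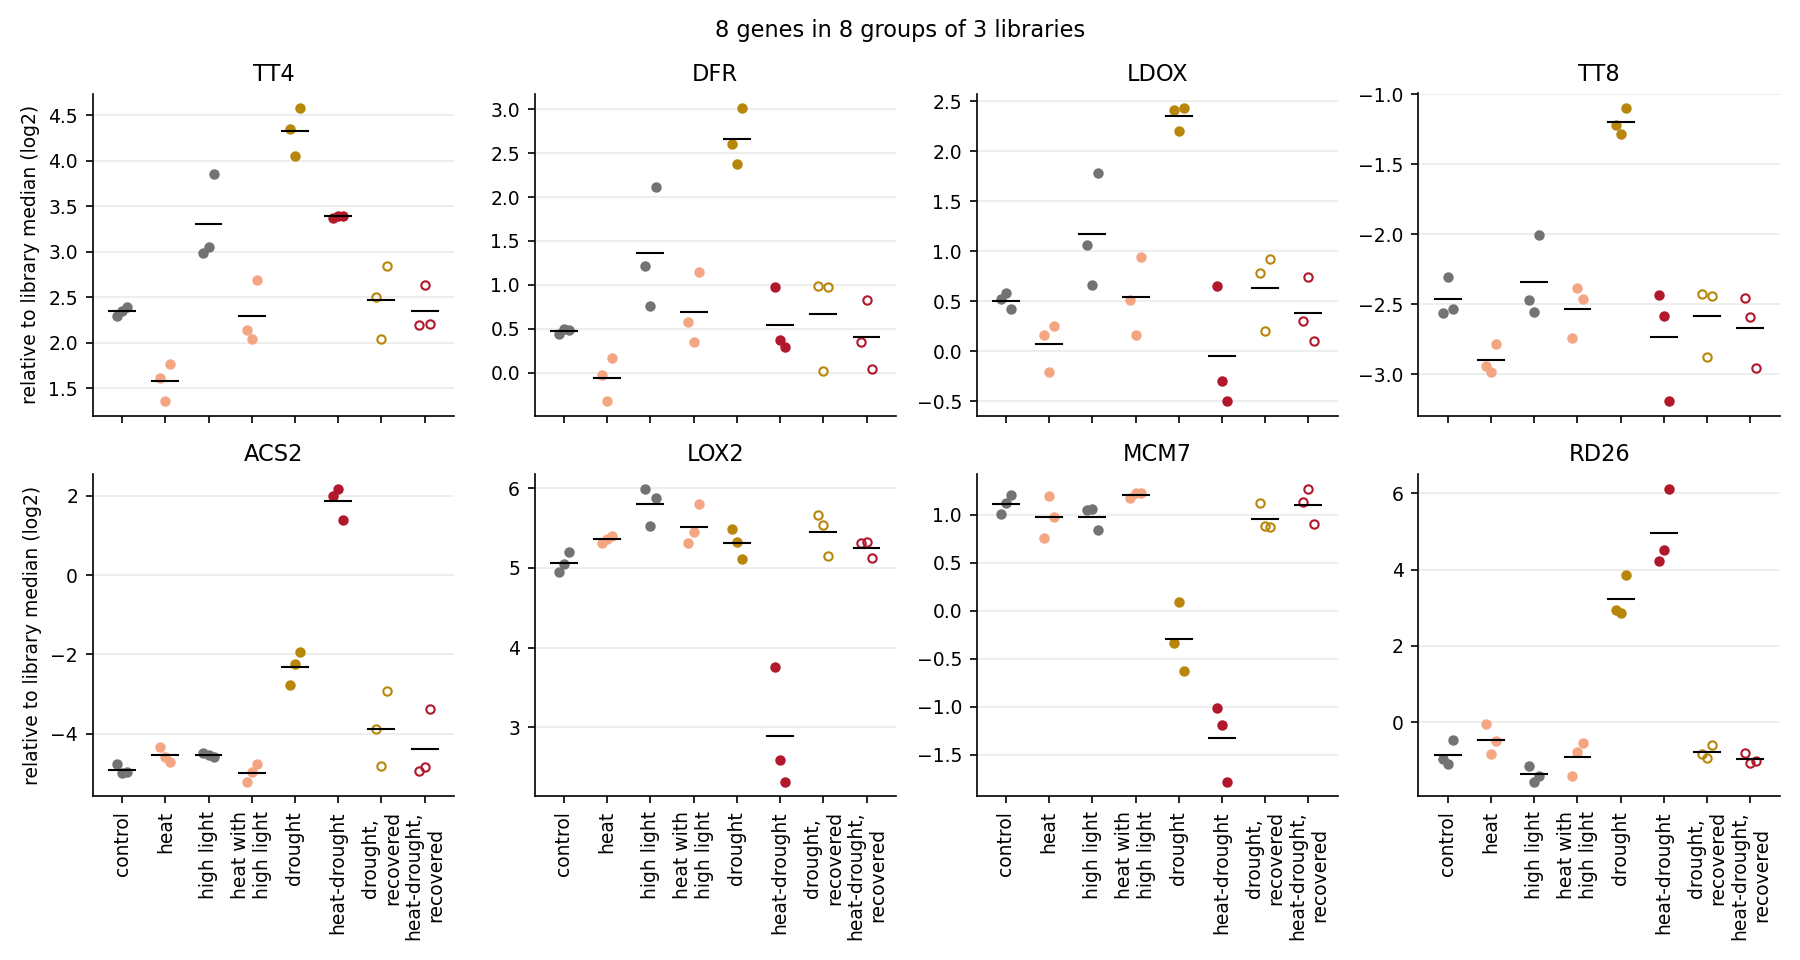
Values of 8 genes in 8 groups, on a vertical axis of log2 relative to the library median; each point is 1 library, each bar the mean of 3, and open points are libraries after 3 days of recovery. TT4, DFR, LDOX and TT8 are high in drought and lower in heat-drought, ACS2 and RD26 are highest in heat-drought, and LOX2 and MCM7 are lowest there.

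A rule that asked for the test in 4 fits, for libraries that do not overlap and for a mean rlog of 5 or more over the 6 libraries named 54 genes, 29 higher and 25 lower, of which the 12 largest in each direction are plotted. Of these 54, the largest rise was that of AT2G36770, annotated as a UDP-glycosyltransferase, from -2.86, -3.19 and -1.77 in drought to 2.14, 2.42 and 1.15 in heat-drought. It rose by 4.51 ± 0.45, 22.7-fold (adjusted p = 5.36e-08, or 0.064 in the 6 libraries with the replicate block). Its neighbours on chromosome 2 are close copies of the same family, so reads may have been split or shared between them. Of these, UGT73C1 and AT2G36780 rose by 2.40 and 4.99, and DOGT1 differed by 0.93 without passing.

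ACS2 (AT1G01480) encodes an ACC synthase, which makes the direct precursor of the gas hormone ethylene. It read -2.78, -2.24 and -1.95 in drought and 2.00, 2.18 and 1.39 in heat-drought, while the control, heat and high light means lay between -4.90 and -4.53. Drought plants were thus above unstressed plants and heat-drought plants well above drought, with no overlap. ACS2 rose by 4.18 ± 0.53, 18.1-fold (adjusted p = 3.56e-06), and it was the 1 called member of 12 tested in the ethylene list. Other members did not pass, with ACS6 at 0.47, the oxidase ACO4 at 0.11, and the receptor ETR2 at -0.42.

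CHAT (AT3G03480) encodes the acetyltransferase that makes the leaf volatile hexenyl acetate. It read -1.66, -2.26 and -0.91 in drought and 2.54, 2.48 and 2.19 in heat-drought, a rise of 4.01 ± 0.44 (adjusted p = 2.51e-07). BFT (AT5G62040), of the family of the flowering signals FT and TFL1, read 1.75, 2.12 and 1.75 in drought, 4.35, 4.05 and 4.34 in heat-drought and -4.35 on average in the control. Its libraries were close within each group, and it rose by 2.38 ± 0.54 (adjusted p = 0.00232). AT4G23680, annotated as a polyketide cyclase or lipid transport protein, rose by 3.38 ± 0.46, and AT2G05540, a glycine-rich protein, by 2.96 ± 0.46. Smaller rises were those of UGT85A2, a glucosyltransferase, by 1.40, AT1G22570 of the major facilitator transporters by 1.37, the lipid-transfer protein AT1G62510 by 1.31 and the hydrolase AT1G73750 by 1.16.

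Beside the anthocyanin genes, the largest falls by this rule were those of PCC1 (AT3G22231), a small protein named for its control by pathogens and the clock, and of AT3G22235, which the annotation calls a cysteine-rich stress tolerance protein. PCC1 read 1.23, 1.98 and 1.20 in drought and -1.06, -1.90 and -1.97 in heat-drought, with a heat mean of 2.30. It fell by 3.11 ± 0.79 (adjusted p = 0.00581), and AT3G22235 fell by 3.07 ± 0.83 (adjusted p = 0.00905, or 0.066 with the replicate block). AT5G55450, another lipid-transfer protein, met the rule with -1.63 ± 0.62 but missed the weighted fit (adjusted p = 0.0575).

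**Figure D2:**
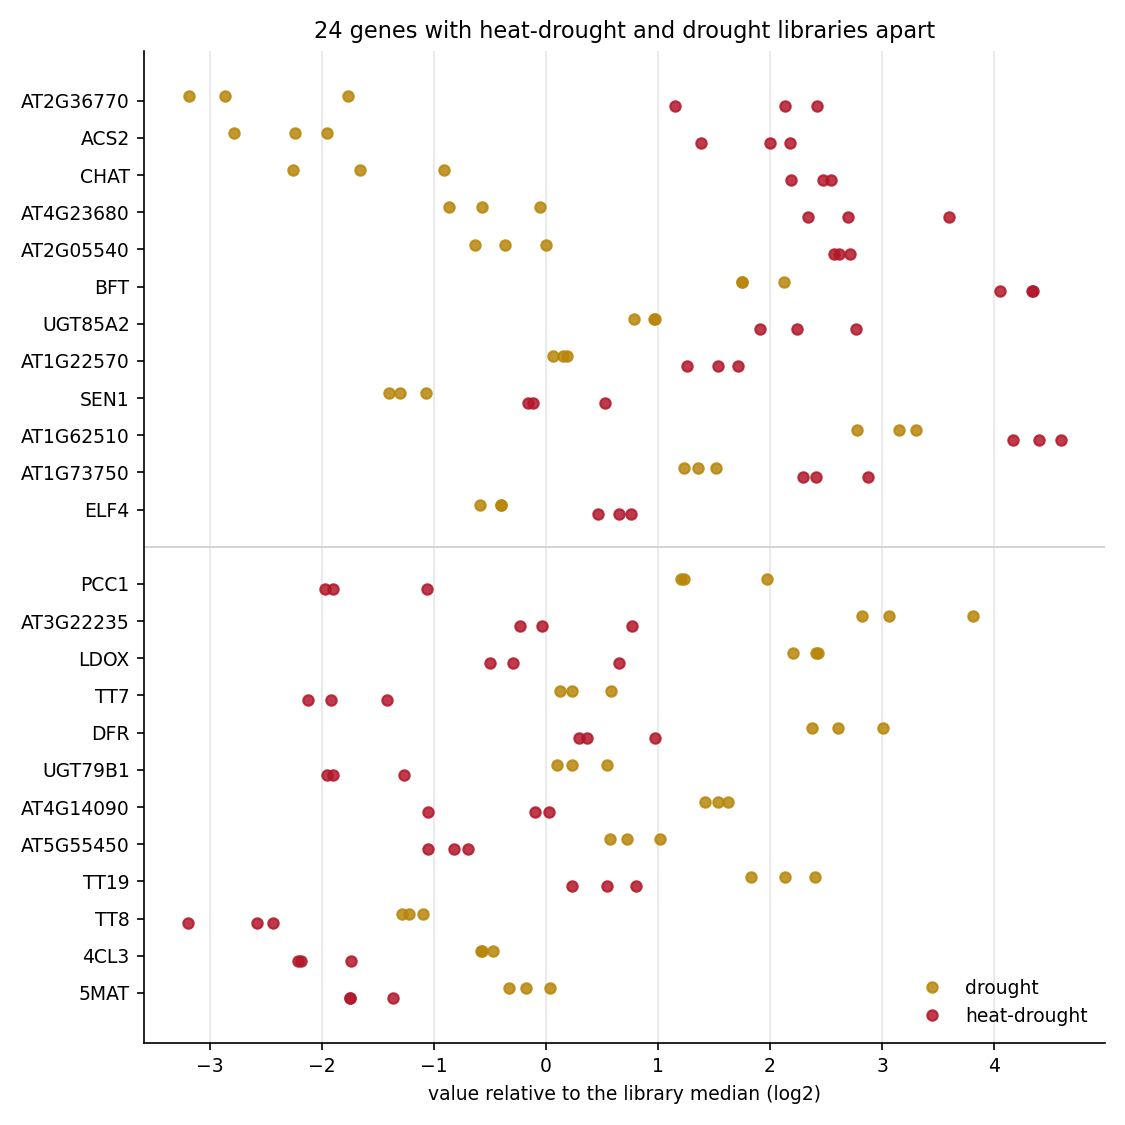
The 24 genes that met the rule with the largest differences, drought and heat-drought libraries as points on a log2 axis relative to the library median. The 12 above the line are higher in each heat-drought library than in any drought library, and the 12 below it are lower; 9 of the lower 12 belong to the anthocyanin list.

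Genes of cell division formed the list with the largest share called. Of 23 members tested, 21 fell, beside 11.1% of all genes. The median difference was -0.75, with a range from -1.05 to -0.31. The list's mean was -0.73, -0.37 and -0.96 in drought and -1.19, -1.41 and -1.62 in heat-drought, against 0.38 in the control and 0.35 in heat. The drought libraries lay below the control, each heat-drought library lay lower still, and the heat mean lay at the control level. The helicase subunit MCM7 (AT4G02060), which opens DNA at replication origins, read -0.33, 0.09 and -0.63 in drought and -1.01, -1.19 and -1.78 in heat-drought. It fell by 1.04 ± 0.19 (adjusted p = 0.000172), as MCM4 did by 1.05 ± 0.16.

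Cyclins of later phases fell too, CYCA1;1 by 1.00 ± 0.16 and CYCB1;2 of mitosis by 0.97 ± 0.19, and so did CYCD3;1, which drives entry into the cycle, by 0.92 ± 0.19. The replication clamp PCNA1 fell by 0.92 and the ribonucleotide reductase subunits TSO2 and RNR1 by 0.75 and 0.70. CYCB1;1 at -0.40 and CDKB1;1 at -0.31 did not pass. Without heat-drought replicate 3 the single-spread model called 22 of the 23, all lower. Of marker genes of the shoot meristem, 2 of 4 were measured well enough to test and neither passed, at -0.38 and -0.31.

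Wall-loosening genes of growing leaves fell in part. In the list of expansins, XTH wall enzymes and GASA peptides, 9 of 22 fell and 1 rose, beside 11.1% and 9.28% of all genes. The expansin EXPA10 (AT1G26770) read 0.65, 1.28 and 0.29 in drought and -0.28, -0.74 and -0.75 in heat-drought, and fell by 1.33 ± 0.20 (adjusted p = 2.1e-05). EXPA3 fell by 1.32 ± 0.22, the gibberellin-regulated peptide GASA4 by 1.24 ± 0.27, EXPA4 by 1.15 ± 0.22 (adjusted p = 0.085 with the replicate block) and the wall enzyme XTH7 by 1.02. XTH22 (AT5G57560), a touch-induced wall enzyme, moved the other way, from 0.32, 0.34 and 2.58 to 2.99, 3.30 and 6.08. Replicate 3 was the highest in both groups, and XTH22 rose by 3.04 ± 0.63 (adjusted p = 0.000939), by 2.06 without heat-drought replicate 3.

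Of the warm-growth and auxin list, 6 of 28 fell and 2 rose, beside 11.1% and 9.28% of all genes. TAA1, an enzyme of auxin synthesis, fell by 0.88 ± 0.18, the shade-responsive homeobox factor HB-2 by 0.83 ± 0.17 and PIF5, a growth-promoting bHLH factor, by 0.59 ± 0.16. HBI1, another bHLH factor of growth, fell by 0.84 ± 0.27 with overlapping libraries (adjusted p = 0.23 with the replicate block). The auxin repressors IAA2 and IAA7 rose by 0.74 ± 0.20 and 0.48 ± 0.14. PIF4, the factor best known for warm growth, differed by -0.28 and its auxin target YUC8 by -0.22, and neither passed.

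Glucosinolates are sulfur-rich defence compounds of the cabbage family, made from methionine or tryptophan. Of 25 tested genes of their synthesis and control, 19 fell, beside 11.1% of all genes. The median difference was -0.81, or -0.45 without heat-drought replicate 3. The list's mean was 2.20, 2.32 and 1.84 in drought and 1.86, 1.34 and 0.73 in heat-drought, with 2.39 in the control and 2.49 in heat. Replicate 1 of heat-drought lay at the lower edge of drought and replicate 3 far below. The libraries of 8 of the 25 genes did not overlap, against 21.3% of all genes that were lower in this way, and the replicate block left 12 called.

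MAM3 (AT5G23020), which lengthens the methionine chain, read 0.24, 0.53 and -0.10 in drought and -0.29, -1.61 and -1.97 in heat-drought. It fell by 1.51 ± 0.29 (adjusted p = 0.000355, or 0.11 with the replicate block). The chloroplast transporter BAT5 fell by 1.34 ± 0.22 (0.10 with the block), CYP79F1 of the methionine branch by 1.23 ± 0.27 (0.12 with the block), and CYP79B3 of the tryptophan branch by 1.22 ± 0.25 (0.0064 with the block). The regulators MYB28 and MYB29 of the methionine branch fell by 0.72 ± 0.17 and 0.81 ± 0.25, while MYB34 and MYB51 of the tryptophan branch, at -0.56 and 0.09, did not pass. The myrosinases TGG1 and TGG2, which break glucosinolates down on wounding, read -0.27 and -0.26 and did not pass.

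Of 24 jasmonate genes 3 rose and 4 fell, shares near those of all genes (9.28% and 11.1%). LOX2 (AT3G45140), the chloroplast lipoxygenase that starts jasmonate synthesis, read 5.49, 5.33 and 5.12 in drought and 3.76, 2.59 and 2.32 in heat-drought, with group means of 5.06 in the control and 5.36 in heat. Drought lay near the control and every heat-drought library was far below both. LOX2 fell by 2.42 ± 0.32, 5.36-fold (adjusted p = 4.54e-06). The later enzymes OPCL1 and AOC4 fell by 0.50 ± 0.18 and 0.45 ± 0.14, and JAR1, which joins jasmonate to isoleucine, by 0.32 ± 0.10. ACX1 of peroxisomal oxidation rose by 0.98 ± 0.16, and the repressors JAZ1 and JAZ12 by 1.21 ± 0.40 and 0.32 ± 0.12. The single-spread model put 7 of the 24 higher and 5 lower with centring, beside 3879 and 4519 of all 19010 genes. As deposited it put 9 higher and 2 lower, beside 7468 and 1742 of all genes. Of 16 salicylic acid and defence genes, limma called 0 by both models. The single-spread model put 5 lower, beside 23.8% of all genes. The libraries of 7 did not overlap and were lower, beside 21.3% of all genes. The replicate block called 3 higher and 8 lower, beside 3134 and 3455 of all 19010 genes. The fit on the 6 libraries without the block put 2 lower, beside 29 of all genes. The 2 were PR2, a glucanase, with 1.14, 1.76 and 1.76 in drought and -0.67, -0.08 and -0.07 in heat-drought, and PR5. Their differences of -1.83 ± 1.47 and -1.62 ± 1.01 missed the weighted fit (adjusted p = 0.391 and 0.256).

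**Figure D3:**
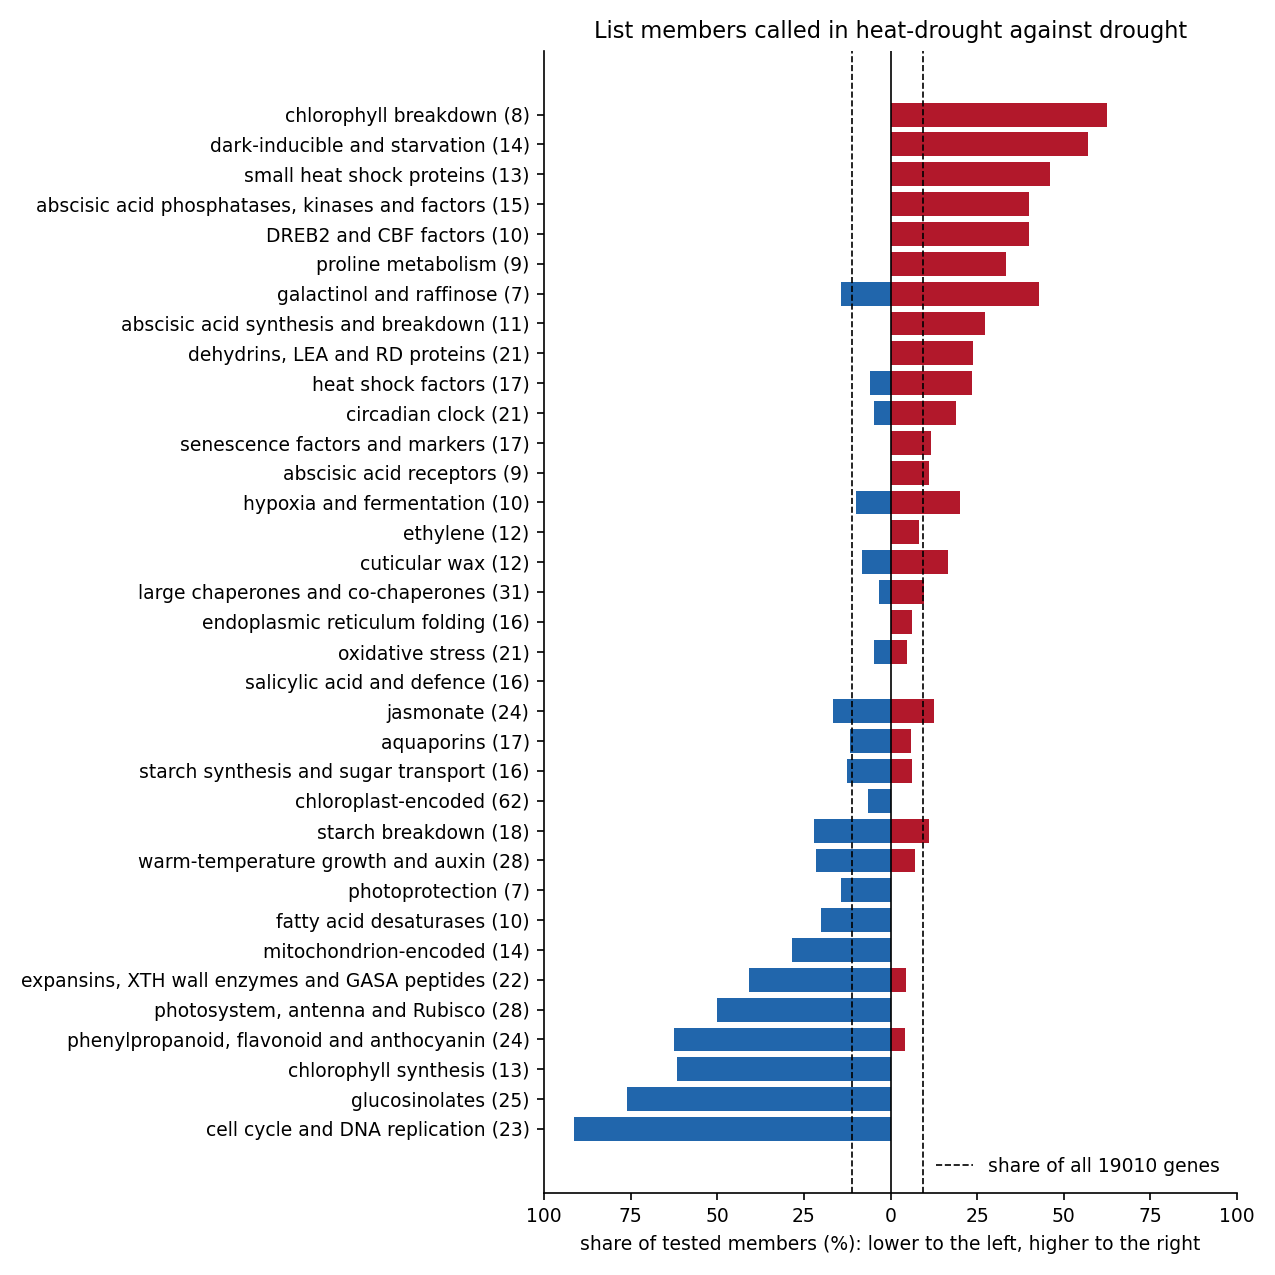
For each of 35 gene lists, the percent of tested members that fell (left) and rose (right) in heat-drought against drought, with the number tested in brackets and dashed lines at the shares of all 19010 genes, 11.1% and 9.28%. Cell cycle, glucosinolate, chlorophyll synthesis and flavonoid lists extend furthest to the left, chlorophyll breakdown and dark-inducible lists furthest to the right.

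Photosynthesis genes stood lower than in drought alone. Of 28 genes for photosystems, antennae and Rubisco, 14 fell, beside 11.1% of all genes, and the others ranged from -0.97 to -0.51 without passing. The median of the list was -0.91. The list's mean was 7.58, 7.96 and 7.15 in drought and 7.09, 6.65 and 6.18 in heat-drought, with 8.39 in the control and 8.15 in heat. The highest heat-drought library lay just below the lowest drought library. The antenna gene LHCB2.3 (AT3G27690) read 5.86, 6.57 and 5.21 in drought and 4.68, 3.87 and 3.48 in heat-drought, and fell by 1.87 ± 0.37 (adjusted p = 0.000523, or 0.056 with the replicate block). LHCB3 fell by 1.34 ± 0.37 and the Rubisco small subunits RBCS3B and RBCS2B by 1.07 and 1.05. Copies within the LHCB1, LHCB2 and RBCS families are near-identical and uncertain as single genes. Without heat-drought replicate 3 the single-spread model called 3 of these 28, with a median of -0.65, while the 6 libraries with the replicate block called 24.

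Chlorophyll genes moved in opposite directions by role. In the synthesis list 8 of 13 fell, beside 11.1% of all genes, with a median of -0.63. The single-spread model without heat-drought replicate 3 called 2, beside 4392 of all 19010 genes. PORB, the light-dependent reductase, fell by 1.09 ± 0.37, CHLH of magnesium chelatase by 0.92 ± 0.30 and its activator GUN4 by 0.81 ± 0.19. In the breakdown list 5 of 8 rose, beside 9.28% of all genes. NYE2 (AT4G11910), the second of the magnesium dechelatases that start chlorophyll loss, read -0.47, -0.77 and 1.42 in drought and 1.67, 2.24 and 3.71 in heat-drought, against -3.34 in the control. Replicate 3 was highest in both groups, and NYE2 rose by 2.48 ± 0.45, 5.56-fold (adjusted p = 0.000264), by 1.89 without heat-drought replicate 3. NYC1, the chlorophyll b reductase, rose by 1.05 ± 0.18, PAO, the oxygenase that opens the ring, by 0.91 ± 0.15, NYE1 by 0.80 ± 0.29 and the pheophytinase PPH by 0.44. Of 17 senescence factors and markers, 2 rose, beside 9.28% of all genes. They were RD26 and the NAC factor ORE1, the latter by 0.84 ± 0.30. The late marker SAG12 at 0.50 and WRKY53 at -0.12 did not pass. The replicate block called 8 of the 17 higher and 2 lower, beside 3134 and 3455 of all 19010 genes.

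Dark-inducible and starvation genes, which leaves express when sugar runs short, rose. Of 14 tested, 8 rose, beside 9.28% of all genes, with a median of 0.78. The list's mean was -0.51, -0.50 and -0.25 in drought and 0.26, 0.11 and 0.80 in heat-drought, with -0.42 in both the control and heat. No heat-drought library reached down to drought. DIN10 (AT5G20250), of the raffinose synthase family, read -1.23, -1.37 and -1.04 in drought and 0.57, -0.03 and 1.98 in heat-drought, with 1.47 in the control. The drought libraries lay below the control, and heat-drought lay between drought and control except in replicate 3. DIN10 rose by 2.06 ± 0.49 (adjusted p = 0.00312, or 0.074 with the replicate block). SEN1 (AT4G35770), the classic marker of darkened leaves, rose by 1.34 ± 0.49 (adjusted p = 0.0477), TPS11 and TPS10 of the trehalose phosphate family by 1.35 ± 0.33 (0.099 with the block) and 1.18 ± 0.26. ASN1, asparagine synthetase, differed by 1.11 and did not pass.

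In starch breakdown 2 of 18 rose and 4 fell, beside 9.28% and 11.1% of all genes. The stress-responsive beta-amylase BAM1 (AT3G23920) rose by 1.15 ± 0.23 and BAM4, which lacks activity, by 0.60 ± 0.16. Enzymes of the nightly route fell, DPE2, which handles maltose in the cytosol, by 1.04 ± 0.21, the phosphatase SEX4 by 0.88 ± 0.19 and the phosphorylases PHS1 and PHS2 by 0.85 ± 0.23 and 0.79 ± 0.28. In starch synthesis and sugar transport, SUS1, sucrose synthase, rose by 1.30 ± 0.27, while APL1, a subunit of ADP-glucose pyrophosphorylase, fell by 0.61 ± 0.14 and TPS1 by 0.43 ± 0.12, of 16 tested. The replicate block called 4 higher and 10 lower in the first list, and 4 higher and 7 lower in the second. Of all 19010 genes it called 3134 higher and 3455 lower.

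**Figure D4:**
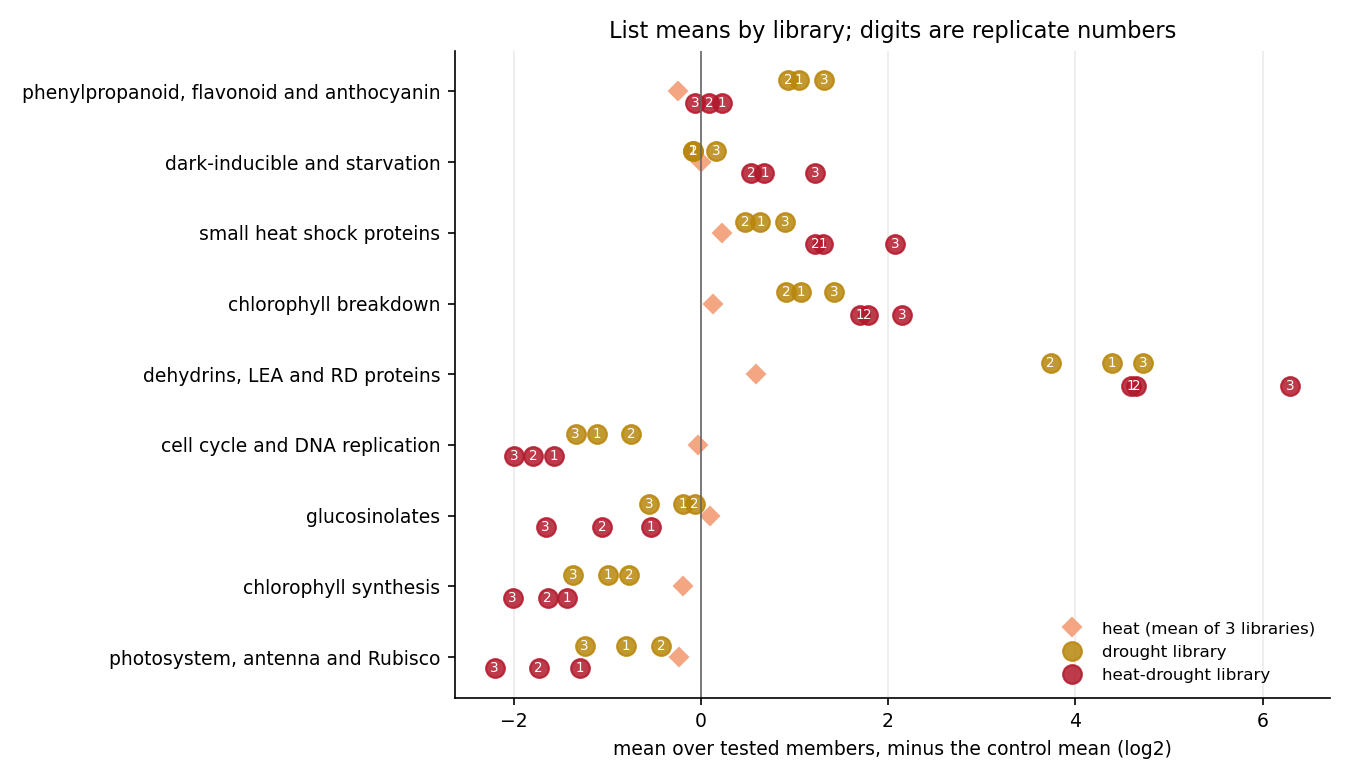
Mean over the tested members of 9 lists, minus the control mean, on a log2 axis; digits are replicate numbers of drought and heat-drought libraries and diamonds the mean of 3 heat libraries. Heat alone lies near the control except in the dehydrin list, and of the heat-drought libraries replicate 3 lies furthest from the control in 8 of the 9 lists, all but the flavonoid list.

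Small heat shock proteins and heat shock factors held more genes that rose than the 9.28% of all genes, while the larger chaperones were near that share. Of 17 heat shock factors 4 rose and 1 fell, of 13 small heat shock proteins tested 6 rose, and of 31 large chaperones and co-chaperones 3 rose and 1 fell, with medians of 0.20, 0.42 and 0.24. As deposited, the single-spread model put 9, 9 and 14 of these higher, beside 7468 of all 19010 genes. With centring it put 5, 8 and 6 higher, beside 3879 of all genes, so the chaperone count fell as that of all genes did. Without heat-drought replicate 3 that model put 2 factors, 6 small proteins and 3 large chaperones higher, beside 1760 of all 19010 genes. The median of the factors then came to 0.067, so the result for the factors depends on that library. The small proteins hold unfolding clients. HSP17.4 (AT3G46230) read -0.63, -0.92 and -0.07 in drought and 4.14, 1.06 and 2.58 in heat-drought, with means of -4.77 in the control and -3.68 in heat. All heat-drought libraries lay above drought, with replicate 1 the highest. HSP17.4 rose by 3.14 ± 1.00, 8.79-fold (adjusted p = 0.0254, or 0.11 with the replicate block).

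HSP18.2 (AT5G59720) was steadier, at -1.54, -1.98 and -1.58 in drought and -0.78, -0.21 and -0.08 in heat-drought, a rise of 1.35 ± 0.19 (adjusted p = 1.07e-05). Its control mean was -2.11. The chloroplast HSP21 rose by 1.15 ± 0.18. AT1G53540, annotated as an HSP20-like chaperone, read -4.27, -4.62 and -4.18 in drought and -3.41, -3.10 and 5.16 in heat-drought. Its difference of 3.91 ± 0.91 was made by replicate 3 and came to 1.10 without it (adjusted p = 0.38 with the replicate block).

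The stretches before 3 of these genes are shown because heat shock factors bind repeats of nGAAn. Capitals mark GAANNTTC or TTCNNGAA, which read the same on either strand and were found in 14.7% of the 12833 full windows. HSP17.4 lies at chr3:16984868-16985117 (minus strand), AT1G53540 at chr1:19980126-19980298 (plus strand, 173 bases up to the neighbouring gene) and HSP18.2 at chr5:24062083-24062322 (plus strand, 240 bases), all in TAIR10.1.
HSP17.4: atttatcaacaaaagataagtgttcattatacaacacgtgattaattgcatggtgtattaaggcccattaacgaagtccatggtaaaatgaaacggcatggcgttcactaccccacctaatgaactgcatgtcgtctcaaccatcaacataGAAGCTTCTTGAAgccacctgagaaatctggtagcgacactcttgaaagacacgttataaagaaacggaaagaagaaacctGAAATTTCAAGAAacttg
AT1G53540: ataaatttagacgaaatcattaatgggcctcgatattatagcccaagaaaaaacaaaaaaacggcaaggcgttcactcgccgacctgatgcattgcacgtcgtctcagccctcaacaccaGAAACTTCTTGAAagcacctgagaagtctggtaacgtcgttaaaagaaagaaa
HSP18.2: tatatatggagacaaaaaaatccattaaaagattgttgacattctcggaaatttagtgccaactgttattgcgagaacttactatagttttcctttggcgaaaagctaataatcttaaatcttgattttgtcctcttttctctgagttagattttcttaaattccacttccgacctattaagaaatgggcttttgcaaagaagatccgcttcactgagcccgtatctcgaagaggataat
HSP17.4 held 4 matches in 2 overlapping pairs, AT1G53540 held 2 that overlap, and HSP18.2 held 0 in this window. Of 6 small heat shock protein genes with a full window 3 held a match, and 3 of 16 chaperone genes. The windows of HOP3, of 60 bases, and of GOLS3 held 0.

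Of the factors, HSFA6B (AT3G22830), which abscisic acid induces, rose by 1.70 ± 0.19 from -4.83, -4.95 and -4.64 to -4.01, -2.99 and -2.32 (0.061 with the replicate block). It was close to its control mean of -5.06 in drought. HSFB2A rose by 1.34 ± 0.31 (0.098 with the block), HSFA1E by 0.65 ± 0.20 and HSFA1A, of the class that starts the response, by 0.43 ± 0.15. HSFA6A (AT5G43840) fell by 2.58 ± 0.64, from 4.99, 2.81 and 4.82 to 4.63, 0.30 and -0.05. Its groups overlapped through heat-drought replicate 1 (adjusted p = 0.27 with the block), and all 6 values were far above the control mean of -5.87. HSFA2, the usual amplifier of heat memory, differed by 0.20 ± 0.24 and HSFA3 by 0.02 ± 0.15. Among chaperones, HOP3, a co-chaperone joining HSP70 and HSP90, rose by 1.31 ± 0.35, HSA32 of heat memory by 0.92 ± 0.25 (0.068 with the block) and HSP70B by 0.65 ± 0.20, while HSBP, which restrains heat shock factors, fell by 0.27 ± 0.10. HSP101, HSP90.1 and HSP70 differed by 0.32 ± 0.20, 0.77 ± 0.79 and 0.64 ± 0.68, and did not pass. Of 16 genes of protein folding in the endoplasmic reticulum 1 rose, the sensor BZIP28 by 0.45 ± 0.16, beside 9.28% of all genes.

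**Figure D5:**
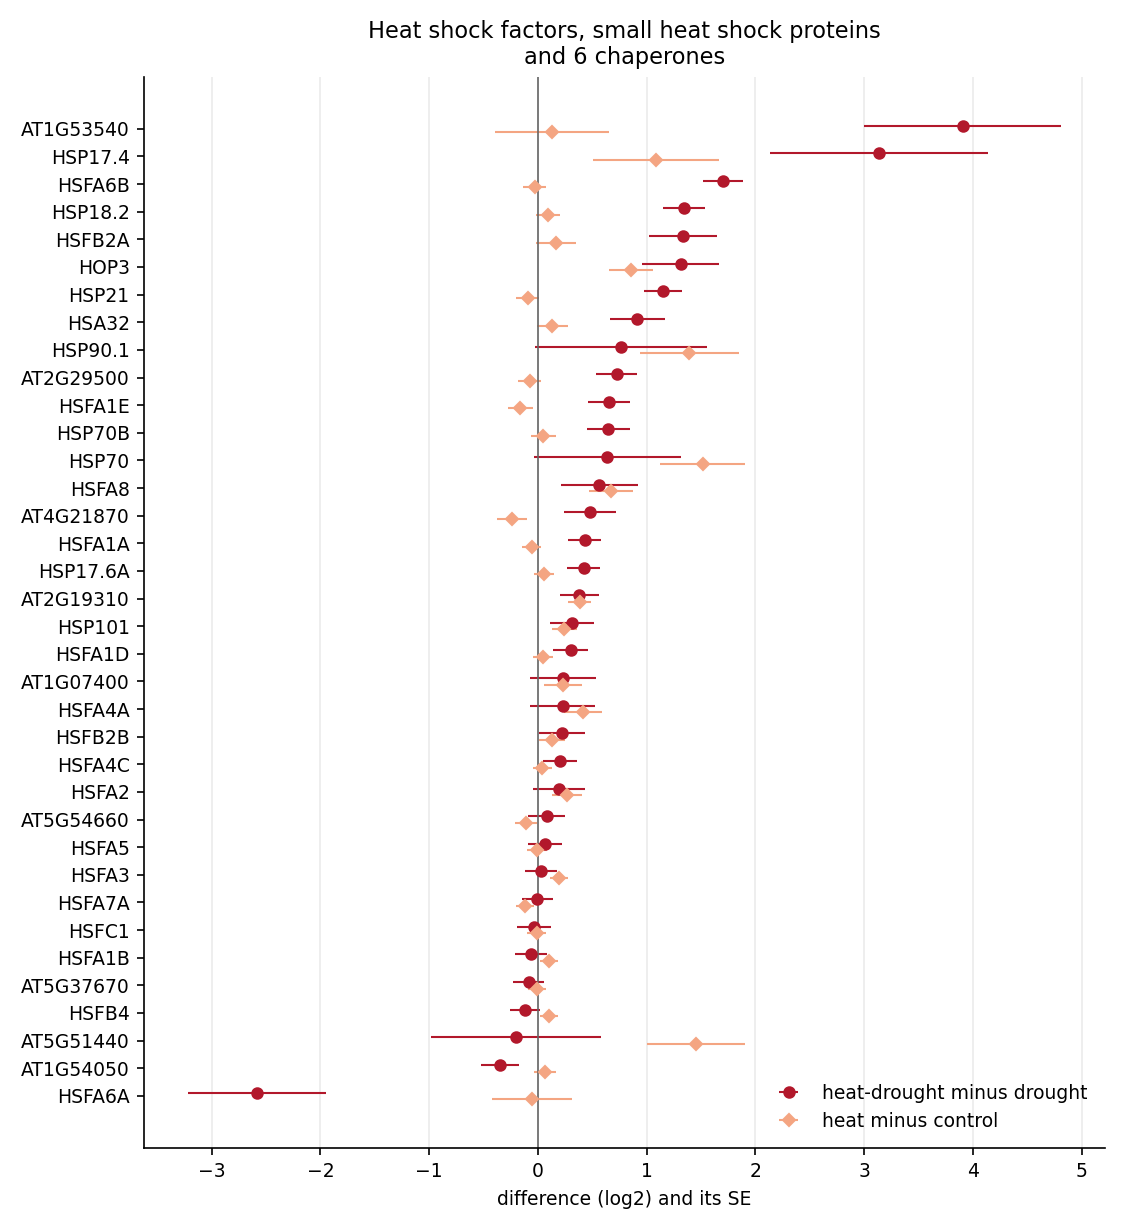
Differences with their SE on a log2 axis for 36 genes: heat shock factors, small heat shock proteins and 6 chaperones, heat-drought minus drought in red circles and heat minus control in orange diamonds. HSP90.1, HSP70 and AT5G51440 lie further right in the orange contrast, HSFA6B, HSP18.2 and HSP21 in the red.

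Genes of dehydration stood far above the control in drought, and a part of them rose further in heat-drought. DREB2A (AT5G05410), the factor that links heat and water loss, read -0.50, -0.84 and 0.68 in drought and 0.82, 0.74 and 4.94 in heat-drought. Replicate 3 stood apart, and the rise of 2.39 ± 0.60 came to 1.00 without it (adjusted p = 0.19 with the replicate block). DREB2B rose more evenly, by 0.86 ± 0.21. Its list held 4 of 10 that rose, beside 9.28% of all genes, the others being GRF7 and NF-YC10. GRF7 rose by 1.94 ± 0.50 with overlapping libraries (0.17 with the block).

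Of abscisic acid synthesis and breakdown 3 of 11 rose, beside 9.28% of all genes. They were ABA3, a cofactor enzyme of the last step, by 0.50 ± 0.17, and the hydroxylases that remove the hormone, CYP707A3 by 0.54 ± 0.16 and CYP707A1 by 1.39 ± 0.34 (0.35 with the block, libraries overlapping). NCED3, the rate-limiting enzyme of synthesis, read 1.54, 1.44 and 2.42 in drought and 2.57, 2.69 and 2.71 in heat-drought, against -1.29 in the control. Its libraries did not overlap, and its difference of 0.86 ± 0.44 missed the threshold (adjusted p = 0.164). Of 9 receptors PYL7 rose, by 0.85 ± 0.18, beside 9.28% of all genes that rose.

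Of 15 phosphatases, kinases and factors of the signalling chain 6 rose, beside 9.28% of all genes. The phosphatases that switch the signal off led: ABI2 (AT5G57050) rose by 0.99 ± 0.26 from 2.75, 2.43 and 3.32 to 3.45, 3.81 and 4.22, ABI1 by 0.75 ± 0.19 and HAB2 by 0.55 ± 0.11. The kinase SNRK2.3 rose by 0.38, and the transcription factors ABF2 and ABF4 by 0.47 each. ABF3 at -0.09 and the kinase OST1 of guard cells at 0.19 did not pass.

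In the list of dehydrins, LEA and RD proteins 5 of 21 rose, beside 9.28% of all genes. The list's mean was 4.93, 4.28 and 5.26 in drought and 5.14, 5.19 and 6.83 in heat-drought, with 0.54 in the control, so heat-drought replicates 1 and 2 lay within the drought range and replicate 3 above it. The median difference of 0.84 came to 0.38 without replicate 3. RD26 (AT4G27410), a NAC factor of drought and senescence, read 2.94, 2.86 and 3.85 in drought and 4.22, 4.50 and 6.12 in heat-drought and rose by 1.73 ± 0.40 (adjusted p = 0.00269). The dehydrin COR47 rose by 1.25 ± 0.30 and LEA14 by 0.84 ± 0.30. The dehydrin LTI30 rose by 1.74 ± 0.59, but by 0.67 without heat-drought replicate 3, where it no longer passed (adjusted p = 0.16), and ECP63 (AT2G36640), a LEA protein, read -3.41, -2.94 and 5.38 in heat-drought and came from 3.74 to 0.89. The standard drought markers RD29A and the dehydrin RAB18 (AT5G66400) differed by 0.60 ± 0.55 and 0.21 ± 0.81, without passing. RAB18 read 9.58, 8.00 and 10.38 in drought and 8.22, 8.31 and 12.06 in heat-drought, a difference of -1.05 without replicate 3.

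Compatible solutes differed by gene. P5CS2 (AT3G55610), a proline synthesis enzyme, rose by 1.11 ± 0.18 from 4.26, 4.01 and 4.99 to 5.17, 5.43 and 5.98, while P5CS1, the drought-induced copy, differed by 0.12 ± 0.39. P5CDH of proline breakdown rose by 0.35 ± 0.12. In the proline list 3 of 9 rose, beside 9.28% of all genes. RS2 (AT3G57520), annotated to the raffinose synthase family, read 5.36, 5.08 and 6.91 in drought and 7.19, 7.33 and 9.36 in heat-drought and rose by 2.18 ± 0.46 (adjusted p = 0.00125). RS5, the main stress raffinose synthase, rose by 0.63 ± 0.16, and GOLS3, the cold-induced galactinol synthase, fell by 1.29 ± 0.39 to below its control mean of -0.79. GOLS1 and GOLS2, the heat and drought forms, differed by 0.41 and 0.27, without passing.

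In the lists of water channels and surface lipids 1 to 3 genes each were called, to be read beside the 9.28% and 11.1% of all genes. Of 17 aquaporins PIP1;4 rose by 0.56 ± 0.16, and the tonoplast channels TIP1;2 and TIP1;1 fell by 0.86 ± 0.27 and 0.60 ± 0.21. Of 12 wax genes CER3, of alkane formation, and its regulator MYB94 rose by 0.53 ± 0.16 and 0.46 ± 0.16, and LACS2 of cutin fell by 0.91 ± 0.14. FAD8, a chloroplast desaturase known as cold-induced, fell by 0.75 ± 0.15 and FAD3 by 0.32 ± 0.11, of 10 desaturases. CAT1, a catalase, rose by 0.98 ± 0.17 and the thylakoid peroxidase TAPX fell by 0.64 ± 0.17, of 21 oxidative stress genes. ADH1, of fermentation, rose by 1.57 ± 0.41 with overlapping libraries, and PDC1 fell by 0.72 ± 0.17.

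Of 21 circadian clock genes tested, 4 rose and 1 fell, beside 9.28% and 11.1% of all genes. The replicate block called 12 higher and 2 lower, beside 3134 and 3455 of all 19010 genes. ELF4 (AT2G40080), of the evening complex, read -0.40, -0.59 and -0.40 in drought and 0.65, 0.46 and 0.76 in heat-drought, a rise of 1.09 ± 0.34 (adjusted p = 0.0204). TOC1 rose by 0.69 ± 0.19, BOA by 0.62 ± 0.14 and ZTL by 0.42 ± 0.11, and CHE, a repressor of the morning gene CCA1, fell by 0.94 ± 0.22 with overlapping libraries. The morning factors LHY at -0.55 ± 0.39 and CCA1 at 0.41 ± 0.34 did not pass. Of 6 flowering-time genes limma called 0 by both models, and the replicate block called 1 in each direction.

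Cell type markers were read beside these lists. The rosette label held: the 5 mesophyll markers summed to 80.1 to 82.3 rlog units in drought and 75.7 to 80.1 in heat-drought, and the 4 seed markers and most root markers lay at an rlog of 3 or less. Of the mesophyll markers 2 of 5 fell, beside 11.1% of all genes. They were LHCB3 and CA1, the latter by 1.11 ± 0.31 (0.082 with the block). Of 11 guard cell and stomatal lineage markers 3 fell, beside the same 11.1%, TMM by 0.97 ± 0.17, SPCH by 0.92 ± 0.20 and MYB60 by 0.67 ± 0.18. Of 8 phloem markers 1 rose, AHA3 by 0.49 ± 0.15, beside 9.28% of all genes. As deposited, their sum was 84.9 to 85.6 in drought and 87.1 to 88.1 in heat-drought. Centred, their means overlapped, at 2.197, 2.305 and 2.15 in drought and 2.242, 2.261 and 2.346 in heat-drought, with a median difference of 0.058. No trichome marker of 4 passed. Of 8 root markers 2 were measured well enough to test, PYK10 and SHR, and both fell, by 0.90 and 0.65, PYK10 not passing without heat-drought replicate 3 (adjusted p = 0.16). The part of cell makeup in the lists above was not tested. Of 62 chloroplast-encoded genes tested 4 fell, and of 14 mitochondrion-encoded genes 4 fell, beside 11.1% of all genes.

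Heat was also given to watered plants. Against the control, 70 genes rose (0.368%) and 82 fell (0.431%), in groups with a smaller SD within the group, 0.158 in heat and 0.122 in the control. Of the 70, 21 (30.0%) also rose in heat-drought against drought, which is 1.19% of the 1764, and of the 82, 21 (25.6%) also fell, 0.997% of the 2106. No sample is shared between these differences. Shared genes included ELF4, at 1.37 in heat and 1.09 in heat-drought, TOC1 at 0.52 and 0.69, ABI1 at 0.51 and 0.75, DREB2B at 0.58 and 0.86, TAA1 at -0.46 and -0.88 and PIF7 at -0.36 and -0.43. Across all genes the 2 differences correlated with r = 0.26 and rho = 0.304, a description over genes measured in the same 12 libraries. For heat with high light against high light, the correlation with heat-drought minus drought was r = 0.0355 and rho = -0.007. That difference and heat minus control gave r = 0.064 and rho = 0.148. Of 123 genes that rose with heat in high light, 16 also rose in heat-drought against drought and 4 fell. Of 127 that fell, 22 also fell and 0 rose.

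The effect of heat in drought was tested against the effect of heat in watered plants. For 816 genes (4.29%) the difference of the effects was above 0 and for 940 (4.94%) below. By list, the cell cycle held 16 of 23 below, glucosinolates 19 of 25, the anthocyanin list 10 of 24, starch breakdown 7 of 18, jasmonate 7 of 24, and dark-inducible genes 7 of 14 above. Genes named for a large difference between heat-drought and drought carry that difference into this test. Among them LOX2 differed by -2.72 ± 0.37, ACS2 by 3.82 ± 0.61, LDOX by -1.96 ± 0.43 and NYE2 by 1.70 ± 0.52. For ELF4 this difference was -0.28 ± 0.39, for HOP3 0.45 ± 0.41 and for ABI1 0.24 ± 0.22, and none of these 3 passed. HSP17.4, at 2.05 ± 1.16, did not pass either (adjusted p = 0.28). Against the effect of heat in high light, 1319 genes (6.94%) lay above and 1772 (9.32%) below. With the 12 libraries of each test alone, 86 (0.452%) and 276 (1.45%) genes passed.

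After 3 days of recovery no gene passed the test of the same difference. Heat-drought recovery against drought recovery gave 0 of 19010 genes (0.0%) by limma in both models, with 956 and 1460 genes at an unadjusted p under 0.05, and 104 genes passed when each library had its own weight. ACS2 lay at -4.38 after heat-drought and -3.87 after drought, LDOX at 0.39 and 0.64, and LOX2 at 5.25 and 5.45, with control means of -4.90, 0.51 and 5.06. The plants of the recovery setup were stressed 3 days earlier in life and are not the plants measured at the end-point.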

How the data were processed

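RNA of 57 rosette samples was sequenced, and the authors deposited rlog values, which are on a log2 scale. The submitters' processing notes name the build TAIR10 and the tools Trimmomatic, STAR, featureCounts and DESeq2. Versions and the strand setting of the counting are not given in the sources used here, so overlapping antisense genes and near-identical copies are uncertain. In rlog values, differences of genes with few reads are shrunk and so understated. The table names 28775 genes. Column names matched 51 samples, and 6 columns of per-sample values that could not be matched were not used. The depth is unknown, so no interval was drawn from it.

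Each library was centred on its median over the 19010 genes with a mean rlog of 3 or more. Differences were tested with limma 3.58.1 in R 4.3.3 (1 mean per group over 51 libraries, intensity trend, robust variances, two-sided, Benjamini-Hochberg over all genes tested), with the data.table package (version 1.17.8). The within-group SD was larger in the compared groups than in most, so a second fit with 1 weight per group (arrayWeights) was added after seeing the data, and a call needs an adjusted p of 0.05 or less in both. The script was tested on simulated data. Figures and tables used Python 3.11.15, pandas 2.3.3, numpy 2.4.6 and matplotlib 3.10.9.

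Groups follow the labels. Same-numbered heat-drought and drought libraries deviated together (r of deviations from the group means 0.374, 0.227 and 0.582). Heat-drought replicate 1 was closer to drought replicate 2, at 0.447. The numbers were therefore taken to pair the libraries in the fits with a block, a pairing read from these same libraries. The block on the 6 libraries alone was added after seeing the data, so its counts are no independent evidence. The labels do not say that a number marks a shared batch. Same-numbered libraries of heat-drought recovery and drought recovery gave 0.55, -0.472 and 0.0251. The 2 fits that define a rise or fall hold no block. The block was fitted on the 6 libraries alone and on all 51, and p-values given "with the block" come from the former.

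Genes were named by a rule: adjusted p of 0.05 or less in the single-spread model, as deposited, in the 6 libraries alone and without heat-drought replicate 3, libraries not overlapping, mean rlog of 5 or more over the 6 libraries, and the 12 largest each way. In each list up to 4 called members each way were named, with those that define the list. Other genes were named after their values were seen, as were 4 promoters. The comparison, members and lists were chosen with earlier results of these data known, so list counts are descriptions and no list was tested. Gene names come from RefSeq's TAIR10.1 annotation. Alternatives were no centring, quantile normalization, other filters, no trend, weights by library, the block, the compared libraries alone and leaving out each replicate.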

Additional observations from a re-analysis of the deposited data

Results flagged for a closer look

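The effect of heat in drought differed from the effect of heat in watered plants, tested as the difference of the 2 effects, for 78 genes in all 3 fits run, the single-spread model, the fit with weights by group and the fit on the 12 libraries alone; 37 of them were above 0 and 41 below. No library is shared by the 2 effects. The genes named by rule were chosen for large differences between heat-drought and drought, which enter this test and the next. Their large values here therefore follow in part from that choice. Among them ACS2 differed by 3.82, AT2G36770 by 4.13, CHAT by 3.48, AT2G05540 by 2.00, UGT85A2 by 1.65 and AT1G22570 by 1.23. On the other side PCC1 differed by -4.38, LDOX by -1.96, TT7 by -1.96, UGT79B1 by -1.79, DFR by -1.58, 4CL3 by -1.31 and 5MAT by -1.25.

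The same test against the effect of heat in high light picked out 258 genes in all 3 fits, 67 above 0 and 191 below. Here ACS2 differed by 4.63, AT2G36770 by 4.47, CHAT by 2.97, AT4G23680 by 2.61, BFT by 1.95, AT2G05540 by 1.60, UGT85A2 by 1.42 and AT1G22570 by 1.19, and UGT79B1 by -1.53, 4CL3 by -1.50 and TT8 by -1.35. Both tests contain the same heat-drought and drought libraries, so the second does not repeat the first independently. All groups hold 3 libraries, which is too few for the check of single outlying libraries.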

How the results depend on the processing

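The 8398 genes of the single-spread model in heat-drought against drought came to 9210 as deposited, 7468 of them higher and 1742 lower, against 3879 and 4519 when centred; the differences of heat effects gave 2143 above 0 and 899 below as deposited against 1516 and 1563 (watered plants), and 5382 and 1077 against 2249 and 2821 (high light). The count came to 3870 with weights by group, 60 in the 6 libraries alone and 63 in 5 libraries without heat-drought replicate 3. With the replicate block, the counts were 8568 over all libraries, 3296 and 5282 for the 2 differences of heat effects, and 6589 in the 6 libraries alone. Leaving out 1 library gave 63 to 9274 (all fits included), the single-spread model falling from 8398 to 4392 without heat-drought replicate 3 and to 5030 without drought replicate 2. The difference from heat in watered plants gave 3079 genes, 1083 to 4829 with 1 library left out, 7086 with weights by library, 1772 with weights by group and 86 in 12 libraries. The difference from heat in high light gave 5070, 2239 to 6897, 8482, 3118 and 276 in the same order. Recovery gave 0 genes throughout, leaving out 1 library included, except 104 with weights by library. Other filters and limma settings kept the first count between 7347 and 10323, and weights by library gave 11569.

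Of 1548 counts in 86 list results under an alternative, 1128 stayed within 1.5 times and 420 did not. Of 3434 values of 192 genes, 2942 kept direction and side of the threshold, 422 lost the call, 43 gained it and 27 changed sign; the cause was not tested. Those belong to 9 genes. Their lowest and highest differences with 1 library left out were as follows. RAB18 (AT5G66400) ran from -1.05, without heat-drought replicate 3, to 0.867, and came to -1.07 with weights by library. WRKY53 (AT4G23810) ran from -0.428 to 0.0484, and came to 0.0807 as deposited, 0.0132 by quantile and 0.719 with library weights. HSFA3 (AT5G03720) ran from -0.0483 to 0.133 and came to -0.0179 with library weights and -0.000822 in 5 libraries without heat-drought replicate 3. TTG1 (AT5G24520) ran from -0.0455 to 0.118 and came to -0.0403 by quantile. ACO4 (AT1G05010) ran from -0.0368 to 0.342 and came to -0.000213 by quantile. MYB51 (AT1G18570) ran from -0.233 to 0.291, MYBL2 (AT1G71030) from -0.00392 to 0.153 and AT5G51440 from -0.56 to 0.193. ABF3 (AT4G34000) came to 0.109 as deposited. None of the 9 was counted as risen or fallen. Depth is unknown, so its limit cannot be given.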

Other observations

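Some of the largest differences lay outside the lists, and the genes here were chosen after their values were seen. GLYI7 (AT1G80160), annotated as a glyoxalase I family protein, read 0.31, -0.01 and 3.14 in drought and 5.05, 5.10 and 7.47 in heat-drought. It rose by 4.73 ± 1.09 (limma with weights by group, adjusted p = 0.00249), against a mean of -3.52 in heat and -4.96 in the control. MSL4 (AT1G53470), a channel of the mechanosensitive family, read -1.70, -1.80 and -0.65 in drought and 1.14, 2.01 and 3.09 in heat-drought, and rose by 3.46 ± 0.33 (adjusted p = 4.37e-08). MES5 (AT5G10300), a methyl esterase, read -0.99, -1.30 and 0.19 in drought and 2.51, 2.03 and 1.92 in heat-drought, and rose by 2.85 ± 0.41 (adjusted p = 1.76e-05, or 0.0703 in the 6 libraries with the replicate block).

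In the other direction, NUDT24 (AT5G19470), a nudix hydrolase, read 2.51, 1.27 and 3.28 in drought and 0.59, -3.08 and -3.43 in heat-drought. It fell by 4.33 ± 0.74 (limma with weights by group, adjusted p = 0.000146, or 0.147 with the replicate block), to a heat-drought mean of -1.97 against -3.32 in the control. ACD6 (AT4G14400), an ankyrin protein known from salicylic acid defence, read 2.40, 3.83 and 2.26 in drought and 0.87, -0.55 and -0.72 in heat-drought, and fell by 2.96 ± 0.72 (adjusted p = 0.00395, or 0.12 with the block). The 2 groups of libraries did not overlap for any of these 5 genes.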
